A study of Mus musculus with 8 samples.

Results

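The 34 genes described here belong to the antioxidant system of the cell or to the pentose phosphate pathway that feeds it. They were Nfe2l2 and its regulators, the enzymes of glutathione and thioredoxin metabolism, the 6 peroxiredoxins, catalase, the superoxide dismutases, the quinone and biliverdin reductases Nqo1 and Blvra, the enzymes of the pentose phosphate pathway, and malic enzyme 1. They were found by symbol among the 55421 gene identifiers of the deposited expression table, through the GENCODE M21 annotation, and each of the 34 was found once. RNA sequencing had been done on 8 libraries of primary mouse bone marrow derived macrophages (BMDMs), which are macrophages grown from marrow, at day 7 of their differentiation. Baf60a knockout (KO) cells gave 4 libraries and wild-type (WT) cells gave 4, and the series title names C57 mice for both. Baf60a is the protein encoded by Smarcd1, a subunit of the SWI/SNF chromatin remodelling complexes. How the gene was deleted, and whether in the whole animal or in some cells only, is not given in the sources used here. No label states that replicates are different mice or different cultures, and p-values then cover only library-to-library spread, which may be technical. Values are TPM, an abundance corrected for transcript length and set to a common sum per library, so that levels of different genes can be set side by side but the depth of a library is unknown.

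NRF2, the product of Nfe2l2, is a transcription factor that KEAP1 holds in the cytoplasm and delivers for degradation until oxidants or electrophiles modify KEAP1. It then binds antioxidant response elements with a small MAF protein and raises genes for glutathione synthesis, thioredoxin reduction and detoxification, while BACH1 competes for the same elements. Peroxiredoxins, glutathione peroxidases and catalase remove peroxides. The thiols that peroxiredoxins and glutathione peroxidases consume are restored by thioredoxin reductase and glutathione reductase at the expense of NADPH. Much of this NADPH comes from the first steps of the pentose phosphate pathway. Macrophages also spend NADPH on the oxidative burst.

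Promoter sequences are shown because many of these genes are textbook targets of NRF2 and because the 2 genes that passed the test, G6pdx and Prdx1, both carried the core of an antioxidant response element. The core searched was TGACNNNGC, on both strands, in RefSeq promoter windows of build GRCm38.p6 that run from 250 bases before to 50 bases after each annotated start. The stretches upstream of the start of both genes are printed 5′ to 3′ on the strand of the gene, with the core in capitals.
G6pdx chrX:74428881-74429130 (- strand): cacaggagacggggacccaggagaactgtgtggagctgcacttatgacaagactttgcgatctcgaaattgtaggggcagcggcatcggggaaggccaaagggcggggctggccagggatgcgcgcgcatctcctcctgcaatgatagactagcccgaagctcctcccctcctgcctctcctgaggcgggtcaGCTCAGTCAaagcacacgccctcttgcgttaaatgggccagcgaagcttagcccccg
Prdx1 chr4:116685349-116685598 (+ strand): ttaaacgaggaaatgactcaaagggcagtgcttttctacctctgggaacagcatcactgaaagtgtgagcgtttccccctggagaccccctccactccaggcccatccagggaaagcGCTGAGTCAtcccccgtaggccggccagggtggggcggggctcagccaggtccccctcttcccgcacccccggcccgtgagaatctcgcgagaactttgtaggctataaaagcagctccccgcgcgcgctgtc
Here the core reads on the opposite strand of the gene. Its first base, counted on the strand of the gene, stood at position -57 in G6pdx and at -133 in Prdx1, relative to the RefSeq start. The G6pdx stretch lies inside the span that GENCODE M21 gives to the gene, which has a start further upstream.

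A window was found for 31 of the 34 genes, and Gclc, Gsr and Prdx6 were not matched. The core was present for 11 of the 31 genes (35.5%), against 13.99% of all 27025 genes in the same table. Counted by window, since some genes have several, it was in 11 of 40 windows (27.5%), against 12.4% of all 32851. A match is a description of the letters in that window, and does not show that the window acts as a promoter. The windows of G6pdx, Pgd and Txnrd1 lie wholly inside the span that GENCODE M21 gives to the gene. For these genes M21 has a start further upstream, and their matches are included in the counts. Besides G6pdx and Prdx1, the genes with the core were Me1, Gclm, Nfe2l2, Txnrd1, Mgst1, Sod1, Blvra, Pgd and Srxn1. Those of Pgd and Srxn1 lay after the annotated start, at positions 4 and 29, and are not printed. The others are given with up to 16 bases on each side, in the orientation of the motif and with the core in capitals.
Me1 chr9:86695896-86695936 (- strand): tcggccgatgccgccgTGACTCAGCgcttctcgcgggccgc
Gclm chr3:122245407-122245447 (- strand): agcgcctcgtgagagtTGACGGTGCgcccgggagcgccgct
Nfe2l2 chr2:75704879-75704913 (- strand): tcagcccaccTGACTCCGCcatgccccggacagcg
Txnrd1 chr10:82859098-82859138 (- strand): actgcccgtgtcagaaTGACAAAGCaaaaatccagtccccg
Mgst1 chr6:138140455-138140495 (- strand): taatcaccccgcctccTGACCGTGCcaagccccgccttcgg
Sod1 chr16:90220690-90220730 (- strand): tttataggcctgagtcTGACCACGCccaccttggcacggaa
Blvra chr2:127070592-127070632 (- strand): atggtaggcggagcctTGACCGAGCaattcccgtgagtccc
In Me1 and Prdx1 the core contained the letters TGACTCA of an AP-1 site. The 9 bases of the core differed from gene to gene in the 3 free positions except between Me1 and Prdx1, which shared the same core. Of these 11 genes, G6pdx and Prdx1 were called higher in the expression data that follow, and none was called lower. Of all genes tested, 4.40% were called higher and 1.21% lower. The promoters were chosen for display with the calls known, and a link between the core and expression was not tested.

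Smarcd1 itself was lower in each Baf60a KO library than in any WT library, with means of 10.5 ± 0.447 TPM in KO and 14.8 ± 0.998 TPM in WT (SD, n = 4 each; log2 fold change -0.47, limma adjusted p = 0.00756), so transcripts assigned to it remained in KO. Summed stromal markers stood at 6686 to 6988 TPM in KO and 5426 to 5925 TPM in WT. Of 10 tested stromal markers (of 11 listed), 6 were called higher, against 4.40% of all genes tested, and none lower, against 1.21%. Dcn was the 1 tested stromal marker with a log2 fold change below 0 (-0.43), and it was not called. Lum, too low to be tested, had a mean of 0.22 TPM in KO and 0.35 TPM in WT. Summed macrophage markers stood at 4385 to 4721 TPM in KO and 5860 to 6809 TPM in WT, where Lyz2 was the 1 marker of 10 called lower and Cd68 and Itgam were called higher. Lyz2 alone carried the lower sum, since without it, a sum formed after the values were seen, the macrophage markers stood at 2575 to 2663 TPM in KO and 2067 to 2499 TPM in WT, and 8 of the 10 had a log2 fold change above 0 (median 0.20). Neutrophil markers summed to 150 to 242 TPM in KO and 199 to 293 TPM in WT, with 0 of 5 tested called. Dendritic markers stayed at or below 2.43 TPM in sum and lymphoid markers at or below 0.63 TPM. Processed pseudogenes held 7.48% to 8.38% of TPM in KO, and 6.78%, 7.62%, 12% and 12.25% in WT replicates 1 to 4. Whether the stromal and macrophage values, or the pseudogene share, have a part in the results below was not tested. In bulk RNA, fewer cells of a type and less RNA per cell cannot be told apart.

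The 34 genes differed little between Baf60a KO and WT cells. All 34 genes passed the filter on low values. G6pdx and Prdx1 rose in KO, with mean TPM 1.2 and 1.18 times that of WT, and no gene fell. Called genes were thus 2 of 34 (5.88%) upward, against 4.40% of the 13933 genes tested, and 0 of 34 downward, against 1.21% (limma on log2(TPM + 1), adjusted p under 0.05 over all genes tested). Without a single library the upward count was 1 to 3. At an unadjusted p under 0.05 there were 7 genes of the 34 (20.6%), against 22.3% of all genes tested, and of these 7 only Prdx6 was lower in KO. The KO libraries were all above the WT libraries for 5 genes (14.7%), G6pdx, Prdx1, Gsr, Keap1 and Pgd, against 11.9% of all genes, and all below for 1 (2.94%), Txnrd1, against 3.96%. These shares are near those of all genes.

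The differences were also small, with a median absolute log2 fold change of 0.087, against 0.101 for all genes tested. Log2 fold changes ran from -0.18 in Prdx6 to 0.36 in Gsr, with a median of 0.03, the same as the median of all genes tested (0.03). In 19 genes (55.9%) the fold change was above 0, against 57.5% of all genes, although Gpx4, Prdx5, Blvra and Tkt passed below 0 with median-of-ratios scaling. The 95% interval of every one of the 34 fold changes lay within 1.5-fold, and for 28 of them it lay within 0.32 of 0 on the log2 scale. In 27 genes the ratio of mean TPM was within 10% of 1. These counts of intervals and ratios were not set against those of all genes tested. The summed TPM of the 34 genes was 10828 ± 291 in KO and 10227 ± 388 in WT (SD, n = 4 each), and without Prdx1 it was 7474 ± 189 in KO and 7385 ± 260 in WT.

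**Figure D1:**
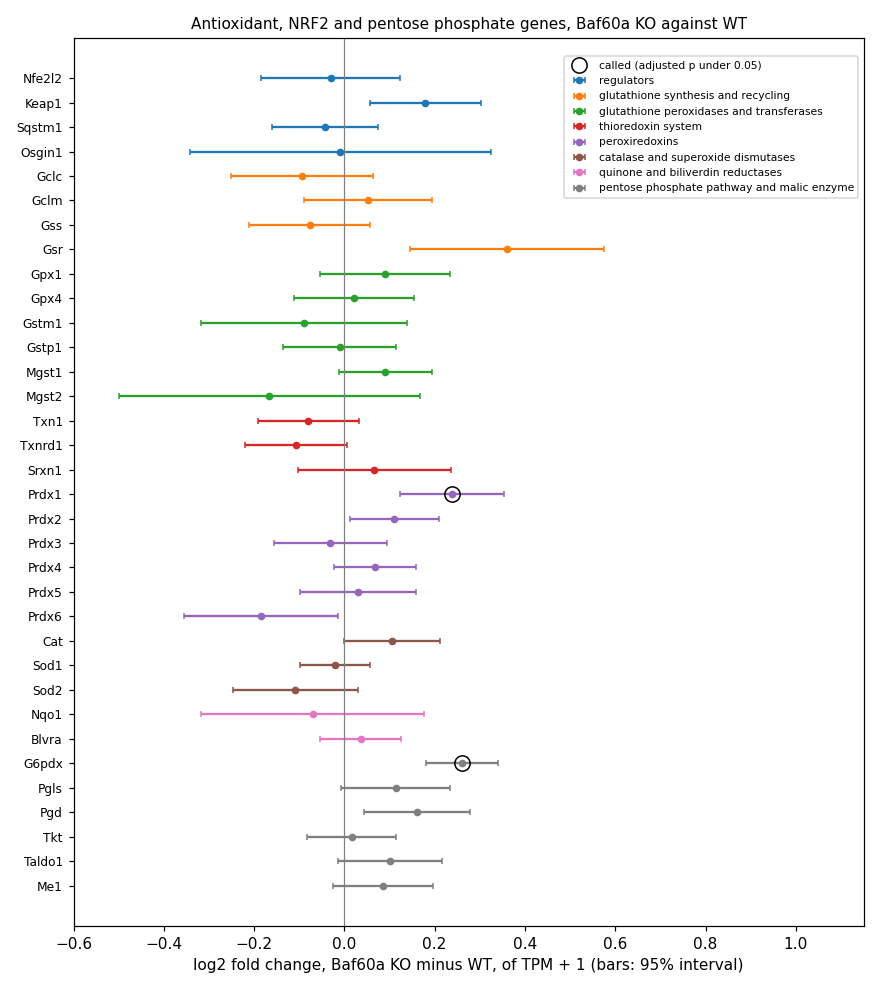
Log2 fold change of TPM + 1, Baf60a KO minus WT, of the 34 genes in order of role; points are limma estimates over 4 KO and 4 WT libraries, bars are 95% intervals and circles mark the 2 called genes, Prdx1 (0.24) and G6pdx (0.26). The estimates lie between -0.18 and 0.36, with Gsr at the upper end and uncalled.

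Of the regulators, none passed the test. Nfe2l2 stood at 85.12, 86.19, 84.17 and 82.15 TPM in KO replicates 1 to 4, and at 95.85, 91.92, 78.74 and 79.66 TPM in WT replicates 1 to 4. All KO values fell within the wider range of WT, and the log2 fold change was -0.03 (95% interval -0.18 to 0.12). Keap1, the adaptor that targets NRF2 for degradation, stood at 30.71, 29.96, 30.83 and 33.14 TPM in KO and at 26.30, 28.51, 28.96 and 25.88 TPM in WT. The groups of Keap1 did not overlap, but the log2 fold change of 0.18 (SE 0.054) did not pass (adjusted p = 0.0932). Sqstm1 encodes p62, which binds KEAP1 and takes it into autophagy, and it was the second most abundant of the 34 genes. It had 897.34, 952.42, 836.60 and 905.25 TPM in KO and 917.48, 987.82, 878.77 and 915.63 TPM in WT, with overlapping groups (log2 fold change -0.04). Osgin1, an oxidative stress-induced growth inhibitor, was the least abundant, at 17.0 ± 2.66 TPM in KO and 17.2 ± 2.99 TPM in WT (SD, n = 4 each). Replicate 3 was the lowest in both groups, at 13.22 TPM in KO and 12.92 TPM in WT.

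Glutathione is built by glutamate-cysteine ligase, whose catalytic subunit is Gclc and whose modifier subunit is Gclm, and by glutathione synthetase (Gss). Glutathione reductase (Gsr) returns the oxidised form to use. The 3 synthesis genes did not pass the test. Gclc had 25.75, 25.12, 23.87 and 25.75 TPM in KO, against 26.14, 30.95, 25.53 and 25.17 TPM in WT. Gclm had 266.72, 270.71, 261.60 and 279.21 TPM in KO, against 234.04, 287.81, 251.06 and 269.25 TPM in WT. The groups overlapped for both genes, and the modifier subunit was far more abundant in TPM than the catalytic one. For Gss the means were 49.9 ± 3.48 TPM in KO and 52.6 ± 2.34 TPM in WT (SD, n = 4 each).

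Gsr had the greatest estimate among the 34 genes and missed the threshold. It stood at 64.63, 65.64, 66.64 and 67.56 TPM in KO and at 47.46, 62.85, 52.12 and 44.46 TPM in WT. The KO values lay close together and above all WT values, of which replicate 2 came near them. The log2 fold change was 0.36 (SE 0.095, 95% interval 0.14 to 0.58) with an adjusted p of 0.0625. Without WT replicate 2 it was 0.46 and was called (limma adjusted p = 0.0149), and with library weights it was called too (limma adjusted p = 0.0490). Under every other alternative Gsr stayed uncalled. Its limma adjusted p was 0.129 with no filter on low values and 0.129 without KO replicate 2.

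None of the 6 glutathione peroxidases and transferases passed the test, and the groups overlapped in each. Gpx1, the main cytosolic glutathione peroxidase, stood at 810 ± 36.1 TPM in KO and 763 ± 65.6 TPM in WT (SD, n = 4 each). Gpx4, which reduces lipid hydroperoxides in membranes and restrains ferroptosis, stood at 650 ± 16.7 TPM in KO and 641 ± 51.1 TPM in WT. The fold changes of both were small (0.09 and 0.02 on the log2 scale), and that of Gpx4 turned to -0.02 with median-of-ratios scaling. Among the transferases, which conjugate glutathione to electrophiles, Gstm1 had 231.13, 221.35, 219.57 and 228.53 TPM in KO and 298.19, 243.87, 208.77 and 216.88 TPM in WT. WT replicate 1 was the highest Gstm1 value, and it was also the highest for Mgst2, at 25.10 TPM against 14.80 to 18.86 TPM in the other WT libraries and 14.80 to 19.50 TPM in KO. Gstp1 stood at 150 ± 5.51 TPM in KO and 151 ± 10.2 TPM in WT. Mgst1, a membrane-bound transferase with peroxidase activity, stood at 122 ± 2.77 TPM in KO and 114 ± 6.16 TPM in WT (limma adjusted p = 0.283).

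In the thioredoxin system all 3 genes stayed uncalled. Txnrd1, the cytosolic thioredoxin reductase, stood at 240.00, 241.66, 228.57 and 239.36 TPM in KO and at 246.92, 281.12, 246.55 and 249.97 TPM in WT. It was the 1 gene of the 34 with every KO value below every WT value, with a log2 fold change of -0.11 (SE 0.050, adjusted p = 0.247). Txn1, thioredoxin, stood at 536.44, 525.35, 473.24 and 528.75 TPM in KO and at 544.56, 552.65, 519.04 and 564.44 TPM in WT. The groups of Txn1 overlapped (log2 fold change -0.08). Srxn1, sulfiredoxin, which repairs overoxidised peroxiredoxins, stood at 194.27, 197.13, 170.42 and 189.94 TPM in KO and at 177.48, 205.41, 167.36 and 168.83 TPM in WT, also with overlap (log2 fold change 0.07).

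The peroxiredoxins were led by Prdx1, the main cytosolic one and the most abundant of the 34 genes, 30th of all listed genes by mean TPM. Prdx1 (ENSMUSG00000028691, chr4:116685544-116700822, + strand, mm10) stood at 3568.40, 3343.97, 3201.33 and 3302.23 TPM in KO and at 2976.59, 2906.61, 2640.29 and 2847.93 TPM in WT. Every KO value was above every WT value, and replicate 3 was the lowest of both groups. Prdx1 rose in KO with a log2 fold change of 0.24 (SE 0.051, 95% interval 0.12 to 0.35, limma adjusted p = 0.0356). The call rested on all libraries but WT replicate 1. It ended when any of the 7 others was left out, with an adjusted p of up to 0.0963 without KO replicate 4, and also without both WT replicates of high pseudogene share (limma adjusted p = 0.0802). Throughout these alternatives and the others tried, the log2 fold change stayed between 0.19 and 0.26.

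The other 5 peroxiredoxins did not pass and did not share a direction. Prdx2, also cytosolic, stood at 174.60, 177.16, 190.82 and 184.55 TPM in KO and at 159.82, 170.39, 174.60 and 168.14 TPM in WT, so that the groups met at a single value (log2 fold change 0.11, adjusted p = 0.177). Prdx6, which uses glutathione and also acts on phospholipids, stood at 250.03, 246.31, 209.30 and 243.07 TPM in KO and at 271.18, 279.72, 239.22 and 288.34 TPM in WT. WT replicate 3 lay inside the KO range, and the log2 fold change was -0.18 (SE 0.075, adjusted p = 0.190). The mitochondrial Prdx3 stood at 87.4 ± 2.92 TPM in KO and 89.5 ± 6.32 TPM in WT, and Prdx4, of the endoplasmic reticulum, at 162 ± 6.67 TPM in KO and 155 ± 2.94 TPM in WT (SD, n = 4 each). For Prdx5, found in mitochondria and peroxisomes, the means were 326 ± 7.42 TPM in KO and 320 ± 25.2 TPM in WT. The summed TPM of the 6 genes was 4348 ± 161 in KO and 3845 ± 141 in WT, most of it from Prdx1.

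Catalase and the superoxide dismutases did not pass. Cat, the peroxisomal catalase, stood at 226.61, 215.41, 211.02 and 221.11 TPM in KO and at 210.85, 213.95, 192.11 and 195.93 TPM in WT. The groups overlapped narrowly, with a log2 fold change of 0.11 (adjusted p = 0.226). Sod1, the cytosolic copper-zinc enzyme, had the smallest standard error of the 34 genes, with 458 ± 9.44 TPM in KO and 464 ± 11.03 TPM in WT (SD, n = 4 each; log2 fold change -0.02, SE 0.034, 95% interval -0.10 to 0.06). Sod2, the mitochondrial manganese enzyme, stood at 63.81, 60.15, 53.45 and 63.00 TPM in KO and at 66.57, 66.31, 64.48 and 61.65 TPM in WT (log2 fold change -0.11, adjusted p = 0.336).

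The reductases Nqo1 and Blvra did not pass either. Nqo1, the quinone reductase often used to read NRF2 activity, stood at 20.82, 23.82, 18.97 and 21.96 TPM in KO and at 20.24, 28.05, 20.88 and 21.36 TPM in WT. Apart from WT replicate 2 the libraries of both groups lay together (log2 fold change -0.07, 95% interval -0.32 to 0.18). Blvra, which turns biliverdin into bilirubin, stood at 78.7 ± 2.46 TPM in KO and 76.7 ± 2.10 TPM in WT (SD, n = 4 each).

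In the pentose phosphate pathway, G6pdx was the 1 called gene. It encodes glucose-6-phosphate dehydrogenase, the first and rate-limiting step, which makes NADPH. G6pdx (ENSMUSG00000031400, chrX:74409483-74429194, - strand, mm10) stood at 109.56, 113.01, 111.99 and 109.76 TPM in KO and at 93.02, 95.82, 91.53 and 89.91 TPM in WT. The gap between the lowest KO and the highest WT value was wider than the range of either group. G6pdx rose in KO with a log2 fold change of 0.26 (SE 0.035, 95% interval 0.18 to 0.34, limma adjusted p = 0.00838). It was called without any single library (adjusted p up to 0.0399) and under each of the 11 other alternatives (up to 0.0442).

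Pgd, 6-phosphogluconate dehydrogenase and the other NADPH-making step of the pathway, stood at 229.99, 229.47, 229.05 and 234.26 TPM in KO and at 193.75, 228.53, 204.26 and 200.10 TPM in WT. All KO values were above all WT values, WT replicate 2 by a small margin only, and the log2 fold change of 0.16 (SE 0.052) did not pass (adjusted p = 0.110). Without WT replicate 2 it was 0.21 and was called (limma adjusted p = 0.0314). Under every other alternative Pgd stayed uncalled. Its limma adjusted p was 0.184 with no filter on low values and 0.201 without KO replicate 2. Pgls, the lactonase between these steps, stood at 142.02, 144.69, 157.51 and 160.64 TPM in KO and at 148.62, 138.68, 135.52 and 135.67 TPM in WT, with overlap (log2 fold change 0.11, adjusted p = 0.253).

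The non-oxidative branch, which returns pentoses to glycolysis, did not pass. Taldo1, transaldolase, stood at 560.33, 569.98, 534.27 and 570.93 TPM in KO and at 560.34, 531.50, 481.98 and 513.31 TPM in WT (log2 fold change 0.10). For Tkt, transketolase, the means were 191 ± 5.44 TPM in KO and 189 ± 8.70 TPM in WT (SD, n = 4 each; log2 fold change 0.02). Me1, cytosolic malic enzyme and another source of NADPH, stood at 42.95, 42.56, 47.64 and 44.86 TPM in KO and at 40.22, 41.57, 43.45 and 42.23 TPM in WT (log2 fold change 0.09). In the pathway and Me1, the estimates of all 6 genes were above 0, although that of Tkt passed below 0 with median-of-ratios scaling (-0.02) and with scaling over protein-coding genes (-0.01), and only G6pdx was called.

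**Figure D2:**
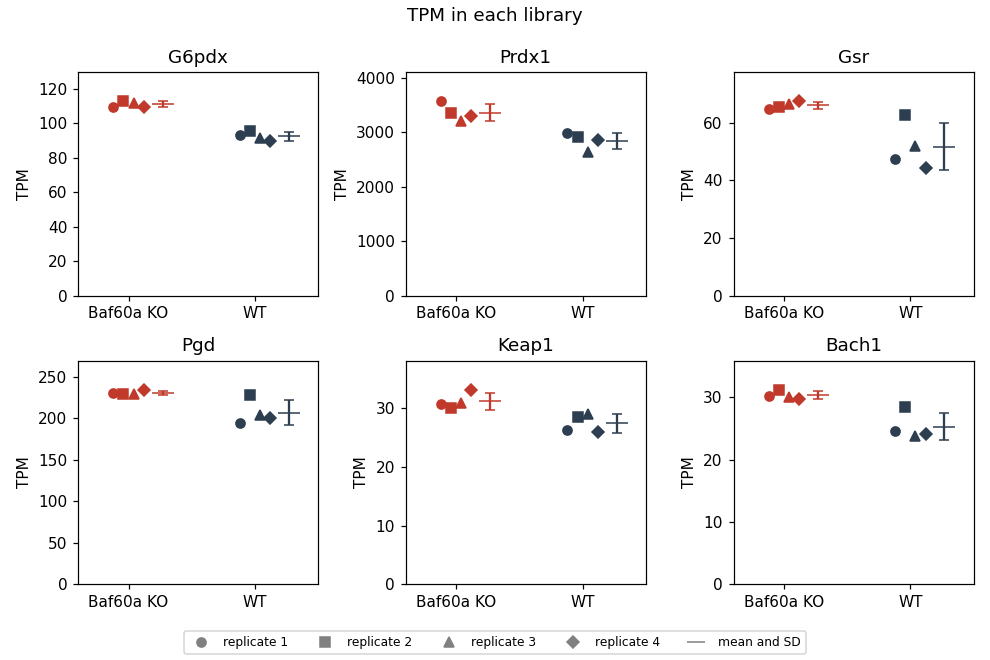
TPM in each library of G6pdx, Prdx1, Gsr, Pgd, Keap1 and Bach1, with 4 Baf60a KO libraries on the left and 4 WT libraries on the right of each panel; marker shapes give the replicate number and bars the mean and SD. Shown are the 5 of the 34 genes with every KO value above every WT value, and the called gene Bach1. The separation in all 6 panels thus comes from the choice of genes. Txnrd1, with every KO value below every WT value, is not shown. WT replicate 2 is the highest WT value of G6pdx, Gsr, Pgd and Bach1.

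Between the replicates of a group, the SD on the log2 scale was greater in WT than in KO for 24 of the 34 genes (70.6%), against 70.3% of all genes tested, and its median was 0.05 in KO and 0.09 in WT for the 34 genes. Among the 8 libraries, WT replicate 1 held the highest value of 10 genes, while WT replicate 3 held the lowest of 11 and KO replicate 3 the lowest of 9. WT replicate 2 had the highest value of 7, among them Gclc, Gclm, Nqo1, Txnrd1, Srxn1 and Sqstm1.

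**Figure D3:**
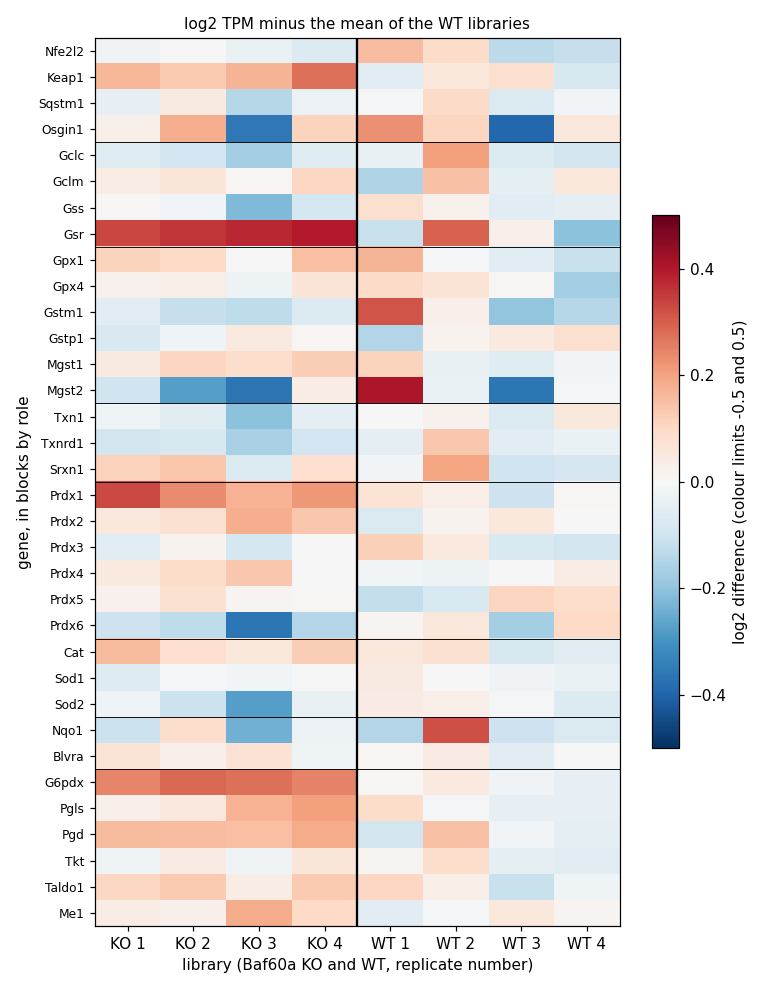
Log2 TPM of the 34 genes (rows, in blocks by role) in the 8 libraries (columns, Baf60a KO left and WT right), minus the mean of the WT libraries, with colours limited to -0.5 and 0.5. Gsr, Prdx1, G6pdx, Keap1 and Pgd have every KO value above every WT value and Txnrd1 has every KO value below, and in the other 28 rows the groups overlap.

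Ratios of paired genes within a library do not depend on how the library was scaled, and 9 were compared. The exact two-sided permutation test could hardly pass here, since its smallest p is 0.0286 and 6 of the 9 ratios would have to reach it for any to pass after adjustment over the 9. The smallest adjusted p was 0.206 (exact permutation test), so the ratios are best read as values. Only the ratio of Me1 to G6pdx did not overlap between the groups. It was 0.392, 0.377, 0.425 and 0.409 in KO and 0.432, 0.434, 0.475 and 0.470 in WT (log2 difference -0.18, SE 0.052, exact p = 0.0286, adjusted p = 0.206). G6pdx alone was already apart between the groups (log2 fold change 0.26) and Me1 was not (0.09), so this ratio is no separate result. The ratio of Gclm to Gclc was 10.7 ± 0.262 in KO and 9.70 ± 0.760 in WT (SD, n = 4 each; exact permutation p = 0.0571), and that of Keap1 to Nfe2l2 was 0.370 ± 0.024 in KO and 0.319 ± 0.039 in WT (exact permutation p = 0.114). For G6pdx to Pgd it was 0.482 ± 0.011 in KO and 0.449 ± 0.025 in WT (exact permutation p = 0.0857). The other 5 ratios, Prdx1 to Prdx2, Txn1 to Txnrd1, Gpx1 to Gpx4, Sod2 to Sod1 and Tkt to Taldo1, had exact permutation p between 0.114 and 0.657.

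**Figure D4:**
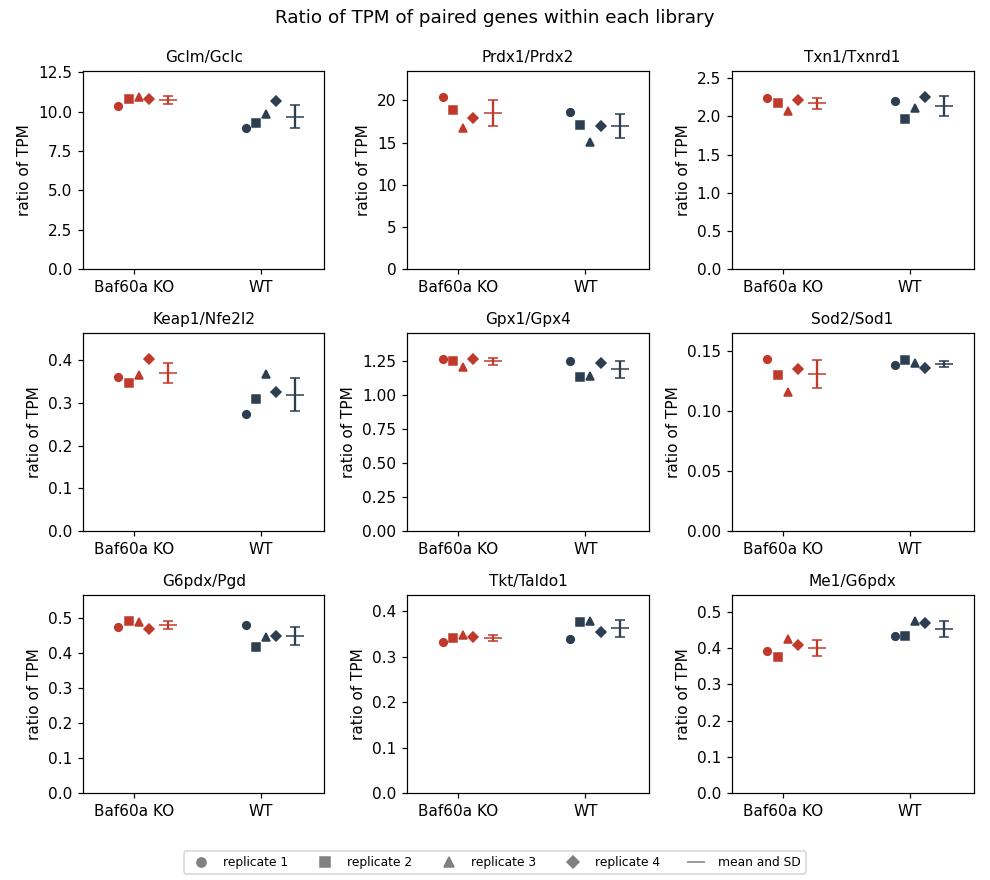
Ratio of the TPM of 2 genes in each library, for 9 pairs, with 4 Baf60a KO libraries left and 4 WT libraries right; marker shapes give the replicate number and bars the mean and SD. Me1 to G6pdx is the 1 pair without overlap, with every KO ratio below every WT ratio.

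Related transcripts can share reads. Near-identical copies, with at least 95% identity over at least 200 bases, were found for 8 of the 34 genes. For Txn1 the copy, a processed pseudogene, held 13.7% of the summed TPM in KO and 16.6% in WT, for Prdx2 8.02% in KO and 9.58% in WT, and for Gstm1 7.85% in KO and 9.09% in WT. The values of these genes are therefore uncertain, by an amount that was not measured and that these shares do not bound. The 2 copies of Prdx1 held 0.665% in KO and 0.612% in WT, and G6pdx had none. With the copies added to their genes, the log2 fold change was -0.13 for Txn1, against -0.08 without them (limma adjusted p = 0.196 with copies and 0.384 without), -0.11 for Gstm1, against -0.09, and 0.09 for Prdx2, against 0.11. G6pdx and Prdx1 were again the 2 genes called.

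Other genes of the same pathways were read from 6 lists, and their counts stand against 4.40% of all genes tested called higher, 1.21% called lower and 22.3% with an unadjusted p under 0.05. Of 11 other regulators of NRF2, 1 rose (9.09%, against 4.40% of all genes) and none fell (against 1.21%). The gene that rose was also the 1 with an unadjusted p under 0.05 (9.09%, against 22.3%). This was Bach1, the repressor that competes with NRF2, at 30.25, 31.17, 30.07 and 29.74 TPM in KO and 24.60, 28.48, 23.80 and 24.12 TPM in WT. The KO values lay close together above all WT values (log2 fold change 0.26, SE 0.061, limma adjusted p = 0.0453), and the call was lost in 7 of the 8 fits that left out a single library (adjusted p up to 0.118). The Bach1 call was also lost under 4 of the 11 other alternatives (limma adjusted p up to 0.136). Of 19 other tested targets of NRF2, none was called (against 4.40% higher and 1.21% lower of all genes), and 2 had an unadjusted p under 0.05 (10.5%, against 22.3%). The most abundant of them, Ftl1, ferritin light chain, stood at 33760 ± 783 TPM in KO and 35690 ± 3139 TPM in WT (SD, n = 4 each).

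Among 25 other tested glutathione genes, 2 rose (8%, against 4.40% of all genes) and none fell (against 1.21%), and 10 had an unadjusted p under 0.05 (40%, against 22.3%). Of these 10, Slc3a2 and Gsto1 were lower in KO (log2 fold changes -0.15 and -0.12) and the others higher. Gpx3, the secreted glutathione peroxidase, stood at 153.54, 156.36, 185.17 and 159.02 TPM in KO and at 120.15, 113.53, 122.05 and 113.28 TPM in WT. Its groups were far apart, and it rose with a log2 fold change of 0.47 (SE 0.063, limma adjusted p = 0.00829), a call kept without any single library (adjusted p up to 0.0341). Gpx7, a peroxidase of the endoplasmic reticulum, stood at 18.58, 19.69, 21.49 and 20.84 TPM in KO and at 14.99, 16.33, 17.83 and 15.04 TPM in WT. It rose with a log2 fold change of 0.31 (limma adjusted p = 0.0405), a call lost in 7 of the 8 fits that left out a single library (adjusted p up to 0.118). The Gpx7 call was also lost under 6 of the 11 other alternatives (limma adjusted p up to 0.0782).

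Of 14 genes of the wider thioredoxin and methionine sulfoxide systems, 1 rose (7.14%, against 4.40% of all genes) and none fell (against 1.21%). An unadjusted p under 0.05 was found for 3 of the 14 (21.4%, against 22.3%). Sesn1, a sestrin, stood at 11.18, 10.69, 12.19 and 11.07 TPM in KO and at 9.74, 9.29, 8.75 and 8.97 TPM in WT. All KO values of Sesn1 were above those of WT (log2 fold change 0.27, limma adjusted p = 0.0378), and the call was lost in 7 of those 8 fits (adjusted p up to 0.0993). The Sesn1 call was also lost under 4 of the 11 other alternatives (limma adjusted p up to 0.117). Of 21 other tested gene models of the pentose phosphate pathway and of NADPH supply, none was called (against 4.40% higher and 1.21% lower of all genes), and 2 had an unadjusted p under 0.05 (9.52%, against 22.3%). The most abundant, Idh2, the mitochondrial NADP-dependent isocitrate dehydrogenase, stood at 126 ± 3.96 TPM in KO and 127 ± 2.96 TPM in WT (SD, n = 4 each). Of the 6 subunits and partners of the phagocyte NADPH oxidase, 1 rose (16.7%, against 4.40% of all genes) and none fell (against 1.21%). An unadjusted p under 0.05 was found for 3 of them (50%, against 22.3%). Cyba, the most abundant, was the 1 with a log2 fold change below 0 (-0.12, limma adjusted p = 0.0954). It stood at 1437 ± 39.7 TPM in KO and 1560 ± 38.5 TPM in WT, with every KO value below every WT value. Ncf4, which encodes the p40phox subunit, stood at 65.78, 63.88, 72.66 and 71.38 TPM in KO and at 60.45, 54.12, 58.83 and 58.71 TPM in WT. Its log2 fold change was 0.23 (limma adjusted p = 0.0482). The call was lost in all 8 fits that left out a single library (limma adjusted p 0.0549 to 0.132) and under 8 of the 11 other alternatives.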

How the data were processed

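RNA was measured by sequencing of total RNA, with paired reads, per the labels' protocols. The submitters' processing notes name bcl2fastq, Salmon 1.2.0 and build mm10. Which annotation was used, and how transcripts were summed, is not given in the sources used here. In the table that the authors deposited each gene has 1 value per library, read as TPM because every library sums to 1000000 within rounding. TPM keeps no depth, so no counting interval is given, and a change in abundant transcripts moves all other values.

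Of 55421 identifiers, 55240 matched GENCODE M21, whose assembly is that of mm10. A gene was tested if 4 or more libraries had TPM over 1 (13933 genes), with values as log2(TPM + 1), a scale that understates changes of low genes, with limma 3.58.1 in R 4.3.3 (trended variance, no term but group, Benjamini-Hochberg adjustment over all genes tested). The fit was tested on simulated data. Near-identical copies were found with BLAST 2.17.0. Groups came from the sample labels. Same-numbered libraries did not deviate together (correlations -0.11, 0.01, 0.01 and -0.02), so the numbers were not taken as pairs.

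The 34 genes, the lists and the alternatives were chosen with earlier results of these data known. Named were the 34 genes, Smarcd1, the called genes of each pathway list (at most 4) and, where none was called, its most abundant tested gene. Copies added to their genes are an alternative chosen after seeing the data. No alternative on read counts could be made.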

Additional observations from a re-analysis of the deposited data

Results flagged for a closer look

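Of 70 groups of 4 libraries, 4 held a library that stood far from the other 3, and chance alone flags about 1 group in 20. In WT, replicate 2 stood apart in 3 genes. It had 30.95 TPM of Gclc, against 25.17 to 26.14 TPM in the other WT libraries. Its Txnrd1 value was 281.12 TPM, against 246.55 to 249.97 TPM in the other WT libraries, and its Nqo1 value was 28.05 TPM, against 20.24 to 21.36 TPM. In Baf60a KO, replicate 3 had 209.3 TPM of Prdx6, against 243.07 to 250.03 TPM in the other KO libraries. None of these 4 genes was called between the groups.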

How the results depend on the processing

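G6pdx was called higher, and none of the 34 genes was called lower, under every alternative. The count called higher was 1 with no filter, with no mean-variance trend, with quantile normalization, with the replicate number as a block and without WT replicates 3 and 4 together, and 1 to 3 without a single library. Over all genes, 613 were called higher and 169 lower. These counts were 292 higher and 72 lower with no filter, 146 and 63 with the replicate block, 201 and 171 without WT replicates 3 and 4, and 120 to 532 higher and 36 to 235 lower without a single library. Same-numbered libraries did not deviate together, but no label states whether the replicate number marks pairs. Higher calls made up 78.4% of all calls, against 56.1% with median-of-ratios scaling (516 higher, 404 lower), 64.9% with scaling over protein-coding genes (594 higher, 321 lower), 63.4% with quantile normalization (440 higher, 254 lower) and 54.0% without WT replicates 3 and 4. Prdx1 remained called in 1 of 8 fits without a single library and in 6 of 11 others. Uncalled estimates changed sign as follows, as log2 fold changes and with the cause not tested. With median-of-ratios scaling these were Gpx4 (-0.0158), Prdx5 (-0.00717), Blvra (-0.000799) and Tkt (-0.0210), and with scaling over protein-coding genes Gpx4 (-0.00449) and Tkt (-0.00974). With library weights Osgin1 was at 0.00481. Without WT replicates 3 and 4, Gpx4 was at -0.0599, Gstp1 at 0.0529, Srxn1 at -0.0250 and Tkt at -0.0341. Without a single library the ranges were -0.0584 to 0.0163 for Gstp1, -0.131 to 0.101 for Osgin1, -0.0737 to 0.0198 for Nfe2l2, -0.155 to 0.0155 for Gstm1, -0.0612 to 0.00800 for Prdx3, -0.0097 to 0.0652 for Prdx5, -0.121 to 0.0328 for Nqo1, -0.0348 to 0.0531 for Gpx4 and -0.00197 to 0.0451 for Tkt. Without a single library, the ratios moved by less than the spread between replicates. In groups of this size that outcome is fixed in advance, so nothing is concluded from it. With a pseudocount of 1 each kept its direction and none passed. The replicate block leaves their differences unchanged by construction. With TPM alone the depth of a library cannot be set against the precision of low genes such as Osgin1.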

Other observations

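Nnt, the mitochondrial transhydrogenase that makes NADPH, has 2 overlapping gene models in the annotation, between which reads cannot be assigned with certainty. The model in ENSMUSG00000116207 stood at 3.51, 3.45, 3.11 and 1.07 TPM in Baf60a KO and at 0, 1.09, 1.90 and 0.83 TPM in WT (log2 fold change 0.99, limma adjusted p = 0.145). The model in ENSMUSG00000025453 stood at 3, 2.52, 4 and 5.13 TPM in KO and at 5.08, 3.56, 3.26 and 4.16 TPM in WT (log2 fold change -0.12, limma adjusted p = 0.761). Summed, they stood at 6.51, 5.97, 7.11 and 6.20 TPM in KO and at 5.08, 4.65, 5.16 and 4.99 TPM in WT, with no overlap between the groups. The sum was formed after the values were seen and was not tested.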
